A study of Homo sapiens with 8 samples.

Results

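The cells compared here are single irradiated MDA-MB-231 cells, a human triple-negative breast cancer line, set apart by how strongly they expressed DNA replication genes. Within each irradiated library, kept cells were ranked by a replication index, the summed CPM (counts per 1000000 counts of the cell) of MCM2, MCM3, MCM4, MCM5, MCM6, MCM7, PCNA, CDC6, GMNN and TYMS, and the top tercile was compared with the bottom tercile. This gave 60 replication-high and 60 replication-low cells among 182 kept irradiated cells, and among 363 kept cells of the series. A cell was kept with at least 1000 detected genes and 5000 counts. Cells carrying a knockdown of ATM, a kinase activated by broken DNA ends, and wild-type (WT) cells had each received 5 Gy of ionizing radiation followed by 4 h of culture, with 2 libraries per genotype. The 2 irradiated knockdown libraries gave 14 cells to each tercile and the 2 irradiated WT libraries gave 16. Untreated knockdown and untreated WT cells of the same line, again 2 libraries each, were split by the same rule into 59 high and 59 low cells.

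Cells were picked singly by mouth pipette, and 3' mRNA libraries were made by a modified Smart-seq2 protocol, per the labels. The 4 irradiated libraries held 9321268 to 19813882 counts. The labels do not say how the knockdown was made, nor whether replicate libraries stem from different cultures. The p-values of the gene tests measure how far the tercile difference varied between the 2 libraries of a group, over all 8 libraries. They cannot be read as a spread between cultures. The knockdown libraries share a title suffix and the WT libraries another, so handling and genotype cannot be told apart. ATM itself was at 6.76 and 10.2 CPM in the high terciles of the irradiated knockdown libraries and at 26.3 and 24.96 CPM in those of the irradiated WT libraries. Its low terciles held 19.97 and 20.1 CPM in the knockdown, against 18.9 and 51.4 CPM in WT, so that the low terciles of the genotypes overlapped.

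Before a cell divides, it copies its DNA in S phase. The MCM2 to MCM7 proteins form the ring-shaped helicase loaded on origins with the help of CDC6 and CDT1, geminin (GMNN) blocks further loading once replication has begun, PCNA is the sliding clamp of the polymerases, and thymidylate synthase (TYMS) makes the thymidine nucleotide. E2F transcription factors switch many of these genes on at the entry into S phase, and a later set of genes for mitosis follows through the DREAM and MuvB complexes and the CHR promoter element. Ionizing radiation halts cells at checkpoints before S phase, within it and before mitosis, and MDA-MB-231 carries a mutant p53.

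The values that chose the cells are given as a description. The median index of the high terciles ranged from 2353 to 3364 CPM across the 4 irradiated libraries, against 392 to 690 CPM in the low terciles. At the upper boundary the lowest high cell and the highest middle cell lay at 1985 and 1856 CPM in knockdown replicate 1, at 1726 and 1673 CPM in knockdown replicate 2, at 2095 and 1976 CPM in WT replicate 1 and at 2824 and 2559 CPM in WT replicate 2. At the lower boundary, the lowest middle and the highest low cell were 927 and 906 CPM, 829 and 813 CPM, 932 and 918 CPM, and 1023 and 948 CPM in the same libraries. The terciles are ranges of the index cut at fixed ranks. Values at the cuts cannot tell a continuum from separate cell states, and this was not tested. PCNA supplied the largest share of the index, 20.05% to 26.5% in the 4 libraries, and MCM2 the smallest, 2.24% to 4.20%.

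**Figure D1:**
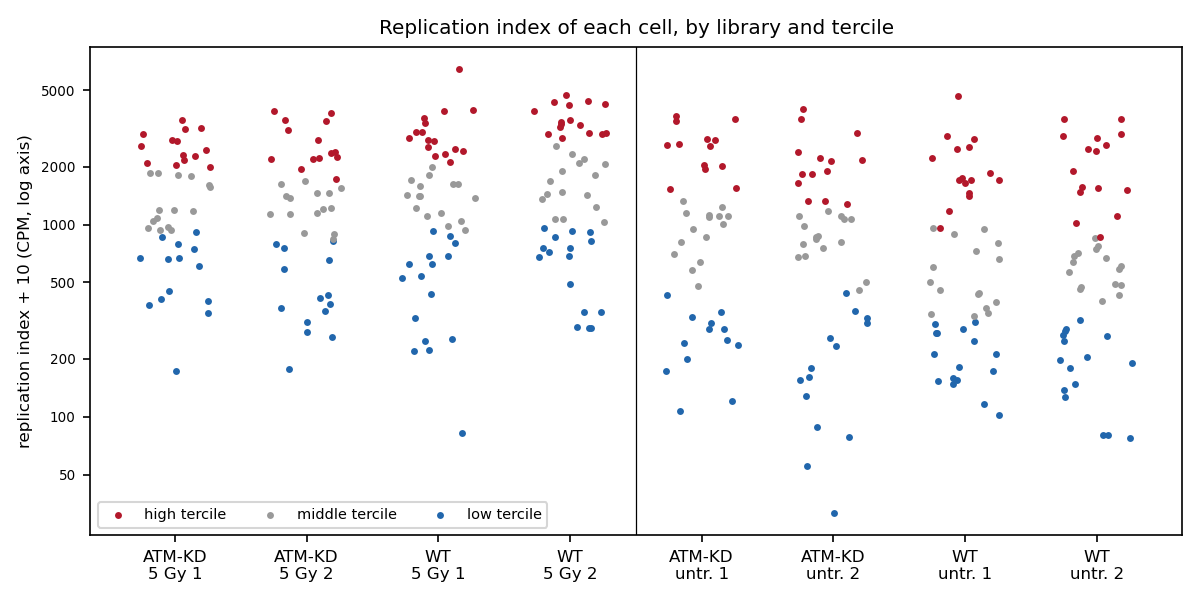
Each point is 1 kept cell; the vertical axis is its replication index plus 10 in CPM on a log axis, and the columns are the 8 libraries, irradiated left of untreated. Colours mark the high, middle and low tercile of each library; median low-tercile indices lay at 392 to 690 CPM in irradiated libraries and at 160 to 240 CPM in untreated ones.

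The 5 markers of the high state are index genes, so their gap between the terciles was set by the rule and is given as a description. Summed over the cells of a tercile, PCNA stood at 586 to 938 CPM in the high terciles of the 4 libraries, against 86.7 to 140 CPM in the low terciles. MCM4 was at 124 to 210 CPM, against 22.2 to 57.0 CPM, and CDC6 at 148 to 178 CPM, against 20.9 to 42.1 CPM. GMNN was at 286 to 355 CPM, against 84.7 to 122 CPM, and TYMS at 194 to 440 CPM, against 15.9 to 101 CPM. PCNA was detected in at least 92.9% of the low cells of every library, so the low terciles still contained replication transcripts.

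Each index gene was then tested in terciles drawn from the other 9, which that gene had not helped to choose. All 10 were higher in the high terciles (edgeR's quasi-likelihood test with Benjamini-Hochberg adjustment over all genes tested). The log2 difference was largest for MCM6, 3.24 ± 0.31 (SE; adjusted p = 5.59e-07), and smallest for GMNN, 1.43 ± 0.22 (adjusted p = 0.000232). PCNA differed by 2.40 ± 0.22 (adjusted p = 1.65e-08), MCM4 by 2.39 ± 0.30 (adjusted p = 4.08e-05), CDC6 by 2.13 ± 0.31 (adjusted p = 4.63e-05) and TYMS by 2.12 ± 0.27 (adjusted p = 6.52e-05). Each index gene was thus higher where the other 9 were.

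Properties of the cells that could move with the split were measured in each library. Median total counts per cell averaged 395054 ± 205231 in the high terciles and 299313 ± 155667 in the low terciles (SD, n = 4 libraries), and were higher in the high tercile in 2 of 4 libraries (exact sign-flip permutation over libraries, two-sided p = 0.5; the smallest p this design allows is 0.125). The mitochondrially encoded share of counts averaged 10.3% ± 0.82 in high and 11.1% ± 0.43 in low terciles (SD, n = 4; exact p = 0.25). Replicate 1 of irradiated WT was the shallowest library, with 2201636 counts in its high tercile and 2755639 in its low tercile, against 4688960 to 9614522 counts in the high and low terciles of the other 3 irradiated libraries. A single cell held up to 28.1% of the counts of a tercile. No cell name was shared between libraries. The part of these properties in the results was not tested beyond the alternatives given under the processing.

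Among 12063 genes tested outside the index, 194 differed between the high and low terciles of irradiated cells, 1.61% of those tested. Of these, 159 were higher in the high terciles (1.32%) and 35 were lower (0.29%). The lists of DNA replication, chromatin assembly, homologous recombination and mitosis genes all had upward members and no downward one. Of the 159 upward genes, 158 had the same sign in all 4 libraries, 151 had their middle tercile between the other two, and in 143 the 4 high terciles lay above all 4 low terciles, which held for 487 of all genes tested (4.04%). Of the 35 downward genes, 33 kept 1 sign, 26 had the middle tercile between, and 14 did not overlap (208 of all genes, 1.72%). The calls came from these same high and low terciles, so shared sign and lack of overlap describe the calls and are no separate evidence. Without replicate 2 of irradiated WT the count was 108, of which 96 were among the 194, and without replicate 2 of the irradiated knockdown it was 128, of which 115 were shared.

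Genes that make DNA precursors were higher in replication-high cells. RRM2, the regulated subunit of ribonucleotide reductase (chromosome 2, 10120698 to 10131419, plus strand, GRCh38), stood at 397 and 414 CPM in the high terciles of the irradiated knockdown libraries, against 27.7 and 10.9 CPM in their low terciles. In irradiated WT it stood at 260 and 465 CPM, against 36.7 and 88.7 CPM. The lowest high tercile was thus above every low tercile, and the fitted log2 difference was 3.53 ± 0.26 (SE; adjusted p = 8.89e-08). RRM1, the large subunit of the same enzyme, was higher by 2.17 ± 0.26 (adjusted p = 5.69e-05) and UNG, which removes uracil from DNA, by 2.63 ± 0.38 (adjusted p = 0.000366). Of 17 nucleotide synthesis genes tested, 5 were higher and none lower, with a median log2 difference of 1.02 over the list beside -0.02 over all genes tested.

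Genes for proteins of the moving fork were higher as well. CLSPN, the adaptor claspin that passes the checkpoint signal from ATR to CHK1 (chromosome 1, 35720218 to 35769967, minus strand, GRCh38), stood at 308 and 310 CPM in the high terciles of the knockdown, against 15.9 and 19.8 CPM in its low terciles, and at 258 and 393 CPM in WT high terciles, against 37.0 and 16.4 CPM in WT low terciles. The groups did not overlap, and the log2 difference was 3.87 ± 0.31 (adjusted p = 2.68e-07). FEN1, the flap nuclease of Okazaki fragments, was higher by 2.80 ± 0.24 (adjusted p = 4.98e-07) and RFC4, of the clamp loader, by 2.80 ± 0.28 (adjusted p = 6.17e-06). FAM111B, a serine protease of the FAM111 family, had one of the largest differences of the well measured genes, 4.33 ± 0.47 (adjusted p = 1.16e-05), with 94.6 and 106 CPM in knockdown high terciles, against 6.22 and 3.88 CPM in knockdown low terciles, and 151 and 116 CPM in WT high terciles, against 11.2 and 3.41 CPM in WT low terciles. Its paralogue FAM111A, which clears protein obstacles from the fork, was higher by 2.74 (adjusted p = 6.68e-05); it is named after its values were seen. Of 30 polymerase and fork genes tested, 18 were higher and none lower, all 30 had a positive estimate, and the median was 2.42.

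Licensing and firing factors outside the index were also higher. CDC45, which joins the MCM ring to make it active, was at 42.8 and 51.4 CPM in knockdown high terciles, against 3.77 and 1.63 CPM in knockdown low terciles, and at 68.6 and 49.3 CPM in WT high terciles, against 0.73 and 5.33 CPM in WT low terciles. Its log2 difference was 4.32 ± 0.63 (adjusted p = 0.000412), although the low tercile of WT replicate 1 rested on 2 counts. MCM10, an origin-firing factor, was higher by 3.58 ± 0.46 (adjusted p = 0.000126) and GINS2, which binds the helicase together with CDC45, by 2.69 ± 0.38 (adjusted p = 0.000366). CDT1, the loading factor that is degraded once S phase starts, was higher by 1.93 ± 0.45 (adjusted p = 0.029), with 29.8 and 56.6 CPM, against 3.60 and 15.2 CPM, in the knockdown and 69.5 and 91.4 CPM, against 25.04 and 32.4 CPM, in WT. The call for CDT1 was lost in 9 of 19 alternatives, among them each irradiated library left out in turn. Of 22 licensing and firing genes tested, 8 were higher and none lower, with a median of 1.78.

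Chromatin assembly genes had the highest share of calls, 9 of 11 tested, with none lower and a median of 2.09. ATAD2, a bromodomain ATPase of replicating chromatin, was higher by 2.61 ± 0.23 (adjusted p = 1.15e-06), and the subunits of the histone chaperone CAF-1, CHAF1A and CHAF1B, by 2.71 ± 0.34 (adjusted p = 6.68e-05) and 3.13 ± 0.45 (adjusted p = 0.000366). HIST1H4C, a histone H4 gene, reached 3567 and 4678 CPM in knockdown high terciles, against 503 and 552 CPM in knockdown low terciles, and 7217 and 7702 CPM in WT high terciles, against 1060 and 2168 CPM in WT low terciles. Every high tercile exceeded every low tercile, with a log2 difference of 2.59 ± 0.19 (adjusted p = 8.89e-08). Other H4 copies have near-identical coding sequences, so reads may be shared among them. SLBP, the protein that binds the stem-loop of histone mRNA, was higher by 1.63 ± 0.20 (adjusted p = 6.68e-05). These were the 2 calls among 16 genes tested in the list of histones and SLBP, whose median was 0.90, and the linker histone HIST1H1C was at -1.13 ± 0.36 (adjusted p = 0.165).

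**Figure D2:**
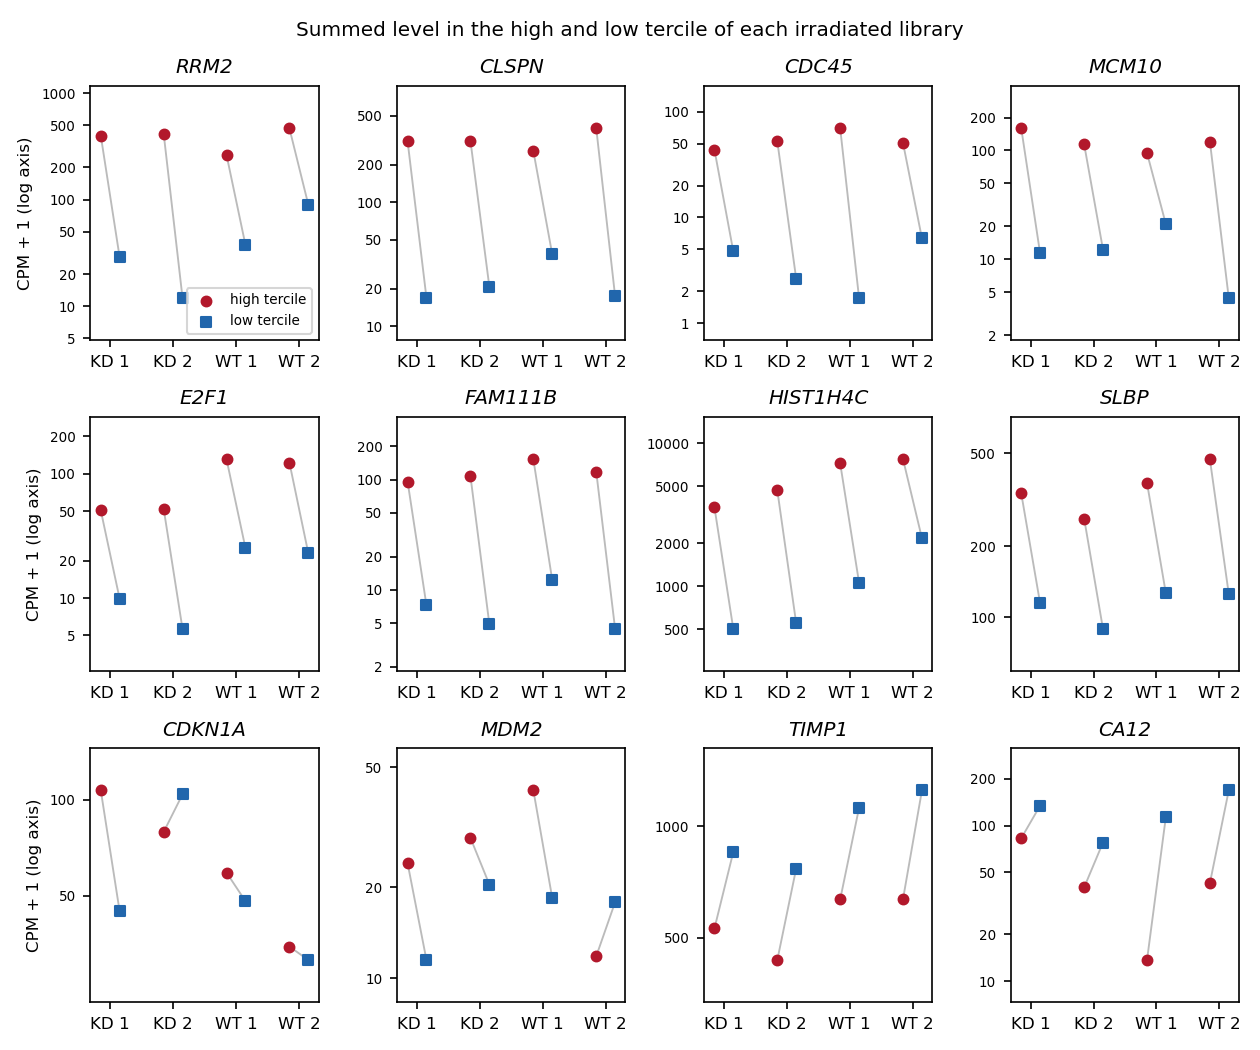
Summed level (CPM plus 1, log axis) of 12 genes in the high tercile (red circle) and the low tercile (blue square) of each irradiated library, joined within a library. For RRM2, CLSPN, CDC45, MCM10, E2F1, FAM111B, HIST1H4C and SLBP all 4 high terciles lie above all 4 low terciles; for CDKN1A and MDM2 1 library goes the other way, and for TIMP1 and CA12 the high tercile is the lower in every library.

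The E2F regulators themselves were among the genes that differed. E2F1, an activator of the G1/S programme (chromosome 20, 33675683 to 33686404, minus strand, GRCh38), was at 49.5 and 51.1 CPM in knockdown high terciles, against 8.84 and 4.64 CPM in knockdown low terciles, and at 129 and 121 CPM in WT high terciles, against 24.3 and 21.97 CPM in WT low terciles, a log2 difference of 2.67 ± 0.37 (adjusted p = 0.000229). E2F8, a repressor of the family that acts late in S phase, was higher by 4.64 ± 0.77 (adjusted p = 0.00137), and TFDP1, the dimerization partner of the E2F proteins, by 0.92 ± 0.19 (adjusted p = 0.0123), a call lost in 9 of 20 alternatives, again with each irradiated library left out. CCNE2, a cyclin that drives the G1/S transition, was at 6.86 to 20.4 CPM in the high terciles, against 0.125 to 2.46 CPM in the low terciles, without overlap, and did not pass the test (4.01 ± 1.35, adjusted p = 0.224). Of 17 E2F and G1/S regulators tested, 5 were higher and none lower, with a median of 1.29. Among 14 genes for CDK inhibitors and cell cycle exit none passed in either direction, beside 1.61% of all genes tested, and the median was 0.09. Of the 14, 2 had an unadjusted edgeR p under 0.05, beside 1150 of all 12063 genes tested.

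Promoters of these genes were read for letters that E2F and the CHR-binding complexes are known to recognise. The E2F search used TTTGGCGC, TTTCCCGC, TTTGCCGC and TTTCGCGC and the CHR search TTTGAA and TTTAAA, each on both strands, in 300 bases of RefSeq (GRCh38.p14) from 250 before the start site. At least 1 E2F match was present in 30 of 129 promoters found for upward genes (23.3%) and in 1 of 30 for downward genes, beside 5.37% of 9498 promoters of genes tested and 3.33% of all 27305 promoters. For the index genes 7 of 8 promoters found had a match, which describes the rule. The stretches below lie before the RefSeq start site, written along the gene's strand with E2F matches in capitals. The E2F1 stretch partly overlaps the gene span given above. The MCM6, TYMS and PCNA stretches stand for the index, and the other four for genes that differed. In MCM6 the 4 matches form overlapping pairs, a forward match and a reverse one sharing bases.
MCM6, chr2:135876502-135876615, minus strand: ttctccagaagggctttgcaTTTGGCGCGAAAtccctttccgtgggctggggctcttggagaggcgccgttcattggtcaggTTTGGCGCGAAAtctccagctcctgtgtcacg
TYMS, chr18:657594-657641, plus strand: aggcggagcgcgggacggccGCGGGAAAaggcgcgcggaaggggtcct
PCNA, chr20:5126654-5126701, minus strand: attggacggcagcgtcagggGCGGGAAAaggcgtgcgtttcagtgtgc
E2F1, chr20:33686386-33686438, minus strand: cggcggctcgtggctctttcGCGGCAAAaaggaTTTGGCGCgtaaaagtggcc
GINS2, chr16:85688958-85689005, minus strand: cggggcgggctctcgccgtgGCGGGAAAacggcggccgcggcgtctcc
CDT1, chr16:88803734-88803781, plus strand: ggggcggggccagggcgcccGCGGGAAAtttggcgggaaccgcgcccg
CDCA5, chr11:65084058-65084105, minus strand: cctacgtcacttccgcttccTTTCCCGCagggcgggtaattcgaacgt

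Among repair genes, calls came mainly from the pathways that work at replication forks. In the list for homologous recombination, the Fanconi pathway and the S-phase checkpoint, 14 of 43 genes tested were higher in the high terciles and none lower, with a median of 1.40. EXO1, the nuclease that resects DNA ends, was at 42.5 and 63.4 CPM in knockdown high terciles, against 0.98 and 2.13 CPM in knockdown low terciles, and at 57.2 and 57.6 CPM in WT high terciles, against 4.72 and 1.49 CPM in WT low terciles. Its log2 difference was 4.73 ± 0.69 (adjusted p = 0.00048). USP1, which removes ubiquitin from PCNA and FANCD2, was higher by 1.73 ± 0.25 (adjusted p = 0.000412). Of 12 genes for non-homologous end joining 1 passed, RIF1, which also times origin firing, at 1.24 ± 0.23 (adjusted p = 0.00462), and the median was 0.29. The RIF1 call was lost without WT replicate 2 and without knockdown replicate 1. XRCC5 (Ku80) was at 0.53 ± 0.17 (adjusted p = 0.163) and PRKDC (DNA-PKcs) at 0.57 ± 0.19 (adjusted p = 0.22). The difference between the lists was not tested.

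Genes of the damage response that p53 controls did not pass the test between the terciles. CDKN1A, the CDK inhibitor p21, stood at 106 and 78.3 CPM in knockdown high terciles, against 43.7 and 103 CPM in knockdown low terciles, and at 58.1 and 33.7 CPM in WT high terciles, against 47.2 and 30.5 CPM in WT low terciles. The ranges overlapped, and the log2 difference was 0.30 ± 0.38 (adjusted p = 0.939), with a negative sign under 2 alternatives. MDM2, the ubiquitin ligase of p53, differed by 0.53 ± 0.61 (adjusted p = 0.928). GDF15, a secreted stress factor, was at -3.28 ± 1.31 (adjusted p = 0.355), from 0 to 7.27 CPM in the high terciles and 0.73 to 22.4 CPM in the low terciles. None of 25 p53 target genes tested passed in either direction, and the median was 0.16. Of the 25, 3 had an unadjusted p under 0.05, beside 1150 of all 12063 genes tested.

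Part of the mitotic genes was higher in replication-high cells. Of 59 G2/M and mitosis genes tested, 22 were higher in the high terciles of irradiated cells and none lower, with a median of 1.28. CKAP2L, a spindle protein, was higher by 3.12 ± 0.42 (adjusted p = 0.00019), NDC80, of the outer kinetochore, by 3.07 ± 0.42 (adjusted p = 0.000237), and HJURP, the chaperone of the centromeric histone CENP-A, by 2.93 ± 0.46 (adjusted p = 0.000875). MKI67, the proliferation antigen, was at 292 and 290 CPM in knockdown high terciles, against 100 and 39.6 CPM in knockdown low terciles, and at 234 and 296 CPM in WT high terciles, against 114 and 114 CPM in WT low terciles (1.67 ± 0.26, adjusted p = 0.000798). TOP2A, topoisomerase II, was higher by 1.77 ± 0.29 (adjusted p = 0.00131). With cells split at the median index in place of terciles, NDC80, HJURP, MKI67 and TOP2A did not pass.

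CCNB1, PLK1 and AURKA had another pattern: they did not pass, and their mean over irradiated libraries was highest in the middle tercile. This also held for the mitotic kinases NEK2 (26.1, 71.2 and 17.3 CPM in low, middle and high terciles) and BUB1 (56.0, 114 and 87.0 CPM). CDK1 was higher in the high terciles by 2.21 (edgeR adjusted p = 0.0048) and AURKB by 2.04 (edgeR adjusted p = 0.00607). AURKB averaged 86.3 CPM in the middle tercile, against 78.8 CPM in the high tercile. NEK2, BUB1, CDK1 and AURKB were named after their values were seen. CCNB1, the cyclin that starts mitosis with CDK1, was at 122 and 225 CPM in knockdown high terciles, against 162 and 115 CPM in knockdown low terciles, and at 128 and 101 CPM in WT high terciles, against 409 and 143 CPM in WT low terciles. Only knockdown replicate 2 was higher in its high tercile, and the log2 difference was -0.43 ± 0.30 (adjusted p = 0.772). In every irradiated library its middle tercile was the highest, at 316 and 239 CPM in the knockdown and 774 and 234 CPM in WT. PLK1, the Polo kinase of mitotic entry, averaged 40.6 ± 36.5, 94.0 ± 80.6 and 31.9 ± 7.90 CPM in the low, middle and high terciles (SD, n = 4) and was also highest in the middle tercile of every irradiated library. AURKA, the centrosome kinase Aurora A, averaged 85.3 ± 56.1, 178 ± 122 and 105 ± 22.4 CPM, and in knockdown replicate 2 its high tercile was the highest.

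Over the whole list the libraries differed. The high tercile was the highest for 30 of 59 genes in knockdown replicate 1, 39 in knockdown replicate 2 and 41 in WT replicate 2, and for 6 in WT replicate 1, where the middle tercile was the highest for 53. The mean over irradiated libraries was highest in the high tercile for 18 genes and in the middle tercile for 41, but without WT replicate 1, a comparison chosen after seeing the data, for 39 and 19 genes. In untreated libraries the mean was highest in the high tercile for 49 and in the middle tercile for 10.

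Of 60 replication-high irradiated cells 24 were in the top tercile of their library for the summed G2/M level (40.0%, 95% exact binomial interval 27.6% to 53.5%), as were 10 of 60 low cells (16.7%, 8.29% to 28.5%) and 26 of 62 middle cells (41.9%, 29.5% to 55.2%). In untreated libraries the numbers were 34 of 59 high cells (57.6%, 44.1% to 70.4%), 2 of 59 low cells (3.39%, 0.413% to 11.7%) and 23 of 63 middle cells (36.5%, 24.7% to 49.6%). These intervals cover the sampling of cells only, and the libraries differed. In the knockdown 7 of 14 high cells and 1 of 14 low cells of replicate 1, and 9 of 14 high cells and 2 of 14 low cells of replicate 2, were in the top G2/M tercile. In WT replicate 2 it was 6 of 16 high cells and 3 of 16 low cells, while in WT replicate 1 the order was the reverse, with 2 of 16 high cells and 4 of 16 low cells. In irradiated WT replicate 1 the summed G2/M level was 6917, 15809 and 7073 CPM in the low, middle and high terciles. The sums of its high and low terciles were thus close, but its median per cell was 1830 CPM in the low and 5470 CPM in the high tercile. The summed level was 2759, 6898 and 6246 CPM in knockdown replicate 1 and 1821, 6012 and 6933 CPM in knockdown replicate 2. In WT replicate 2 it was 4625, 6278 and 7541 CPM. Over the 4 irradiated libraries the median per cell averaged 5428 ± 840 CPM in high and 1545 ± 254 CPM in low terciles (SD, n = 4). It was higher in the high tercile in 4 of 4 libraries (exact sign-flip permutation, two-sided p = 0.125, the smallest this design allows).

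**Figure D3:**
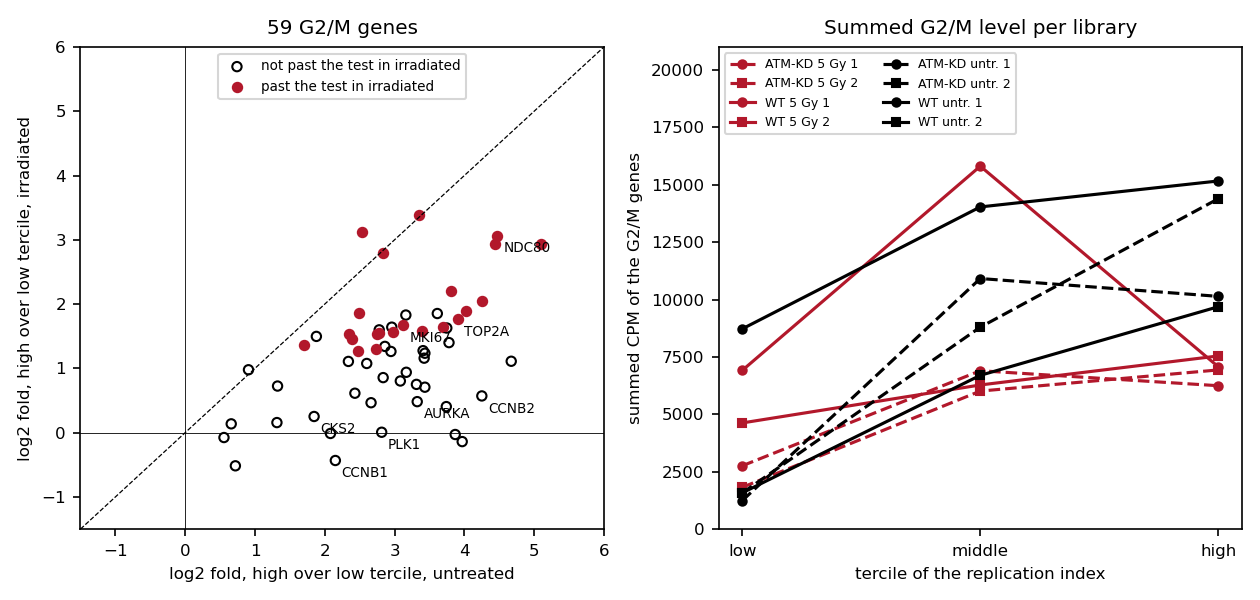
Left, each point is 1 of 59 G2/M genes, with its log2 difference between high and low terciles in irradiated cells (vertical) and in untreated cells (horizontal); filled points passed the test in irradiated cells and the dashed line marks equality. Right, summed CPM of these genes in the low, middle and high terciles of each library; 56 of 59 genes lie below the dashed line, and the irradiated high terciles end between 6246 and 7541 CPM.

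The CHR letters were found in 37 of 50 promoters available for the G2/M list (74.0%), beside 15.7% of the promoters of genes tested. The stretches of CCNB1, CCNB2 and PLK1 are shown because these cyclins and this kinase did not pass between the irradiated terciles, and RRM2 because it did. These promoters all hold the CHR letters, here in capitals, shortly before the RefSeq start site. For RRM2 that site, and the stretch, lie inside the wider gene span given above.
CCNB1, chr5:69167100-69167145, plus strand: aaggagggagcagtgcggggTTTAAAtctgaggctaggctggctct
CCNB2, chr15:59105097-59105142, plus strand: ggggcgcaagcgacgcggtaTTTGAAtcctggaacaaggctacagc
PLK1, chr16:23678781-23678885, plus strand: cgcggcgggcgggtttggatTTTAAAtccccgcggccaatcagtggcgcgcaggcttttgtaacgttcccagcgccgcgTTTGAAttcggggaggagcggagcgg
RRM2, chr2:10122689-10122734, plus strand: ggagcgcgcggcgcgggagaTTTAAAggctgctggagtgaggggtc

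Fewer genes were lower in replication-high cells, with TIMP1 and CA12 the most stable of those named. TIMP1, the secreted inhibitor of metalloproteinases, stood at 529 and 435 CPM in knockdown high terciles, against 851 and 768 CPM in knockdown low terciles, and at 634 and 636 CPM in WT high terciles, against 1119.5 and 1248 CPM in WT low terciles. Every low tercile exceeded every high tercile, with a log2 difference of -0.86 ± 0.12 (adjusted p = 0.000392). CA12, the membrane carbonic anhydrase XII, was at 81.9 and 39.1 CPM, against 133 and 76.8 CPM, in the knockdown and at 12.7 and 41.7 CPM, against 113 and 167 CPM, in WT (-1.71 ± 0.29, adjusted p = 0.00153). TIMP1 and CA12 passed under all 20 alternatives. ANGPTL2, a secreted angiopoietin-like protein, differed by -1.94 ± 0.36 (adjusted p = 0.00346), SPINK4, a protease inhibitor, differed by -1.77 ± 0.39 (adjusted p = 0.0175) and S100A4, a calcium-binding protein of motile cells, by -0.43 ± 0.08 (adjusted p = 0.00452). The call for SPINK4 was lost without WT replicate 2, and those for ANGPTL2 and S100A4 without knockdown replicate 1.

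SPRY1, a Sprouty inhibitor of receptor tyrosine kinase signalling, was at 2.90 and 7.19 CPM in knockdown high terciles, against 27.0 and 30.1 CPM in knockdown low terciles, and at 11.8 and 14.98 CPM in WT high terciles, against 128 and 39.0 CPM in WT low terciles, a log2 difference of -2.51 ± 0.42 (adjusted p = 0.00137), which did not pass without cells above 2 times the median total of their library. TOB1, an antiproliferative protein of the BTG family, differed by -1.46 ± 0.31 (adjusted p = 0.014), a call lost in 7 of 20 alternatives. GLRX, glutaredoxin, was at -1.30 ± 0.25 (adjusted p = 0.00563), lost without WT replicate 2 and without knockdown replicate 2. The calls for ACSS2 (-1.29), PTGES (-1.10), FAM20C (-1.06), CITED2 (-0.95), FUCA1 (-0.94), KRT19 (-0.68), MUC1 (-2.72) and BST2 (-0.63) were each lost under 6 to 10 alternatives, among them at least 3 of the 4 that leave out 1 irradiated library. SOX4, a transcription factor of the SRY family, was lower by the fit (-2.13 ± 0.31, adjusted p = 0.000412) in all 4 libraries, but without those large cells the estimate was 2.21 (adjusted p = 0.109).

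Most other lists showed few or no calls. Over all genes tested 1.61% were called, 1.32% higher and 0.29% lower. Ribosomal protein genes (83 tested), immediate early genes (28), NF-kB targets (27) and unfolded protein response genes (26) had 0 calls in irradiated cells. So did ribosome biogenesis genes (37), heat shock genes (14) and mitochondrially encoded genes (13). The medians of these lists ran from -0.40 to 0.12. In this order, 4, 6, 6, 4, 6, 2 and 1 of their genes had an unadjusted p under 0.05, beside 1150 of all 12063 genes tested. Interferon (25 tested), hypoxia (31) and cholesterol genes (28) had 1 lower gene each, BST2, CA12 and ACSS2. The list of osmoprotective, AKR1C and cystatin genes had 1 lower member of 10, SOX4, which is none of these, and the mesenchymal list 2 of 26, S100A4 and TIMP1. Markers of luminal and basal epithelium had 2 lower members of 13, KRT19 and MUC1. Of 18 leukocyte markers 8 were in the tables and 5 could be tested, none of which passed, and CD14 was at 6.11 to 61.4 CPM in high terciles, against 18.0 to 58.8 CPM in low terciles.

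**Figure D4:**
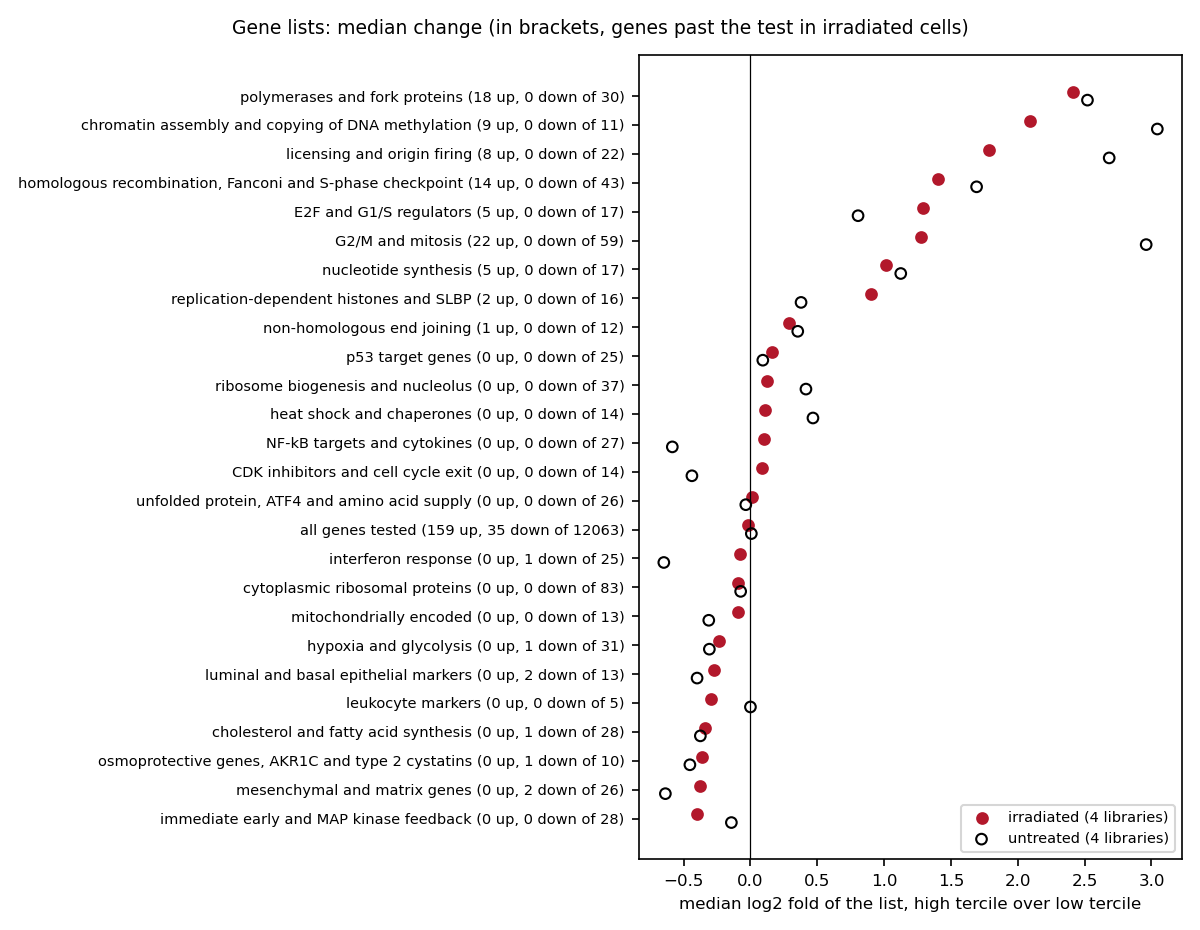
Median log2 difference between high and low terciles for each gene list in irradiated cells (filled, drawn above) and in untreated cells (open); the numbers in brackets count genes past the test in irradiated cells among those tested. The licensing, fork, nucleotide synthesis, chromatin assembly and G2/M lists lie at 1.02 or more in irradiated cells. The list of histones and SLBP lies at 0.90, and the median over all genes is -0.02.

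Outside the lists, the genes whose level followed the index most closely from cell to cell were CENPU, PCLAF, MASTL, CDCA5 and HMGB2. Their mean Spearman correlations over the 4 irradiated libraries were 0.69, 0.65, 0.63, 0.63 and 0.63, among 6473 genes detected in at least 50% of the cells, whose median was 0.03 and whose central 90% ran from -0.16 to 0.25. CENPU is a centromere protein, PCLAF binds PCNA, MASTL is the Greatwall kinase, CDCA5 (sororin) holds sister chromatids together, and HMGB2 is a chromatin protein. In untreated libraries the same genes had 0.69, 0.71, 0.55, 0.57 and 0.62. Cells of a library share their preparation, and CPM of a cell share its total.

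The same index rule applied to untreated cells, whose libraries are not shared with the irradiated split, gave 714 genes of 12063 (5.92%), with 467 higher (3.87%) and 247 lower (2.05%). Of the 159 upward genes of irradiated cells, 141 were also called in untreated cells and 158 had the same sign, and of the 35 downward genes 22 were called and 32 had the same sign. RRM2 averaged 249 ± 74.1 CPM in untreated high terciles and 13.6 ± 9.25 CPM in untreated low terciles (SD, n = 4; log2 difference 4.31, edgeR adjusted p = 5.53e-09), and TIMP1 averaged 559 ± 89.0 and 889 ± 179 CPM (-0.77, edgeR adjusted p = 0.000352). SPRY1 averaged 36.6 ± 25.8 CPM in untreated high terciles and 75.1 ± 80.6 CPM in untreated low terciles and did not pass (-0.89, edgeR adjusted p = 0.237). Without replicate 2 of untreated WT, 472 genes were called. The terciles were cut at different indices: the irradiated low terciles had medians of 392 to 690 CPM, against 160 to 240 CPM in the untreated low terciles, and the part of this gap in the contrasts was not tested.

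A test of the difference between the irradiated and the untreated contrast passed for 9 genes (0.0746% of 12063), 2 higher (0.0166%) and 7 lower (0.058%). SOD2 was among the higher, and the 7 were CCNB1, CCNB2, AURKA, CKS2, DTL, ZNF367 and SOX4, of which CKS2 and ZNF367 are outside the rule for named genes and were chosen after their values were seen. CCNB1, CCNB2, AURKA and CKS2, a CDK subunit, are regulators of mitosis. AURKA was at 87.0 and 136 CPM in irradiated knockdown high terciles, against 70.7 and 31.1 CPM in the low terciles, and at 106 and 90.0 CPM in irradiated WT high terciles, against 164 and 75.3 CPM. In untreated cells it was at 289 and 293 CPM, against 7.95 and 16.8 CPM, in the knockdown and at 396 and 274 CPM, against 167 and 28.5 CPM, in WT. The high terciles of untreated cells were all above those of irradiated cells, and the difference of the 2 contrasts was -2.84 ± 0.46 (adjusted p = 0.0158). Over the 59 G2/M genes, 56 had a smaller contrast in irradiated cells, with a median difference of -1.60, beside -0.04 over all genes tested. From unfitted differences per library, 56 of 59 were smaller in irradiated cells also without WT replicate 1, with a median difference of -1.30. The per-library medians of the high-minus-low difference were 1.55 and 2.23 in irradiated knockdown and 0.30 and 0.69 in irradiated WT libraries, against 4.08 and 3.70 in untreated knockdown and 0.62 and 3.20 in untreated WT libraries. Untreated WT replicate 1 thus lay within the irradiated range. The calls of CCNB1, CCNB2, AURKA, DTL and SOD2 were lost without replicate 1 of irradiated WT, when 2 genes passed in all. Of these 1 was upward and 1 downward, so at most 1 of CKS2, ZNF367 and SOX4 still passed. With any other library left out 11 to 53 genes passed, but CCNB2 was lost without replicate 2 of untreated WT, SOD2 without that library or replicate 1 of the untreated knockdown, and DTL without replicate 2 of untreated WT or replicate 1 of the irradiated knockdown.

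DTL, the substrate adaptor that marks CDT1 and p21 for destruction, was higher in the high terciles under both conditions, with a smaller log2 difference after irradiation. It stood at 91.7 and 102 CPM in irradiated knockdown high terciles, against 22.8 and 8.77 CPM in the low terciles, and at 78.6 and 102 CPM in irradiated WT high terciles, against 16.7 and 16.4 CPM. Untreated high terciles held 56.5 and 62.0 CPM in the knockdown and 26.2 and 69.5 CPM in WT, against 0.22 and 0.21 CPM, and 1.72 and 1.16 CPM, in the low terciles, which rested on 1, 1, 12 and 8 counts. The irradiated low terciles were thus all above the untreated low ones, and the irradiated high terciles all above the untreated high ones. Mean levels were 93.4 and 16.2 CPM in irradiated high and low terciles, against 53.6 and 0.82 CPM in untreated ones. The difference of the contrasts, in log2, was -3.76 ± 0.68 (edgeR adjusted p = 0.0329), a call lost in 9 of 19 alternatives.

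SOD2, the mitochondrial superoxide dismutase, had a positive difference of the contrasts (1.87 ± 0.33, edgeR adjusted p = 0.0279), as its high terciles were lower in all 4 untreated libraries and in 2 of 4 irradiated ones. It averaged 102 ± 34.0 CPM in irradiated high terciles and 199 ± 177 CPM in irradiated low terciles, and 104 ± 36.9 CPM in untreated high terciles and 651 ± 607 CPM in untreated low terciles (SD, n = 4).

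**Figure D5:**
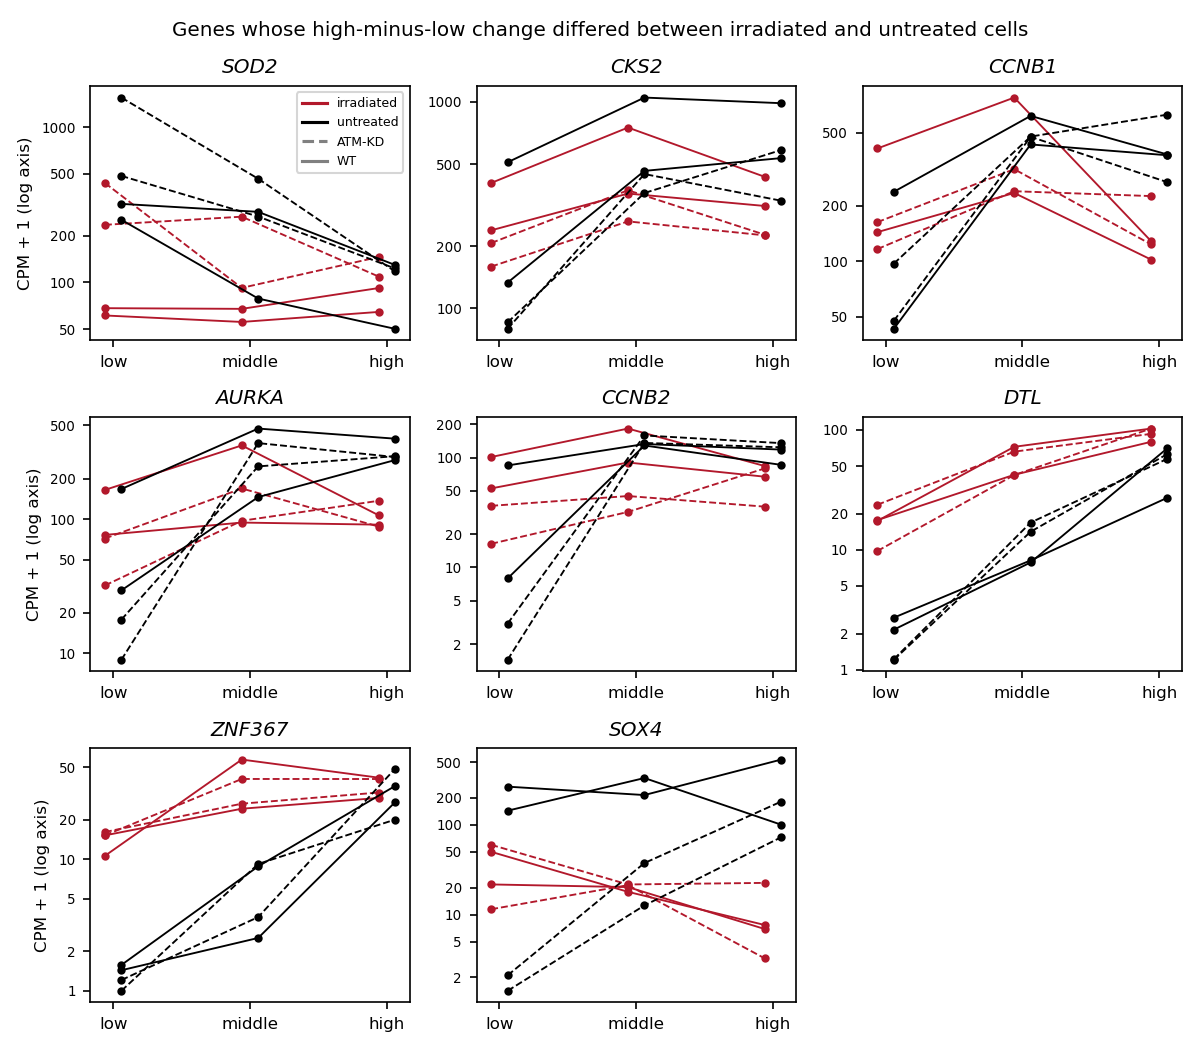
CPM plus 1 (log axis) in the low, middle and high terciles for 8 genes whose contrast differed between irradiated (red) and untreated (black) libraries; dashed lines are knockdown and solid lines WT libraries. CCNB1 peaks in the middle tercile of every irradiated library, and SOD2 is lower in the high than in the low tercile of all untreated ones.

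Knockdown and WT cells were compared within the irradiated split. No gene passed for the difference of the 2 genotypes (0% of 12063 with edgeR), 326 had an unadjusted p under 0.05, and DESeq2 called 2. Without replicate 1 of the irradiated knockdown edgeR called 6, without either replicate 2 of the irradiated groups 1 each, and without any other library 0. In the fit of all 8 libraries, the term for irradiated knockdown passed for 93 genes (0.771%), 80 higher (0.663%) and 13 lower (0.108%), and the term for irradiated WT for 33 (0.274%), 28 higher (0.232%) and 5 lower (0.0414%). These counts were unstable. The knockdown count was 18 without knockdown replicate 2, and 157 and 160 without replicate 1 or 2 of the untreated knockdown. The WT count was 14 and 2 without WT replicate 1 or 2, and 59 to 73 without any 1 of the other 6 libraries. Without the large cells the counts were 93 for the knockdown and 83 for WT, so no order of the genotypes is read from them. The median log2 difference of the 59 G2/M genes was 1.90 in the knockdown and 0.48 in WT, while the fork list had 2.15 and 2.38 and the licensing list 1.73 and 1.75. TOP2A illustrates the mitotic values, with 377 and 438 CPM in knockdown high terciles, against 92.0 and 26.4 CPM in the low terciles, and 514 and 488 CPM in WT high terciles, against 340 and 336 CPM. Its log2 difference between the genotypes was 2.45 ± 0.57 (SE; edgeR adjusted p = 1).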

How the data were processed

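Single-cell gene counts were deposited by the authors as whole-number raw counts per gene and cell, and whether a count is a read or a molecule, and whether strand was used, is not given in the sources used here. Per the submitters' processing notes, Trimmomatic 0.36, HISAT2 2.1.0, HTSeq 0.9.1 and hg38 were used. Of 378 cells, 363 had at least 1000 genes and 5000 counts; the 15 left out were all knockdown cells. Doublets were not called, since cells were picked singly.

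Counts were summed over the cells of each tercile and library, giving totals of 2201636 to 9614522 per irradiated high or low tercile. Genes were tested with edgeR 4.0.16 in R 4.3.3 (TMM, quasi-likelihood, Benjamini-Hochberg adjusted p below 0.05) over all 8 libraries, with the library as a block because both terciles come from the same library, and 1 high-versus-low term per group. The 10 index genes were left out, and each was tested in terciles made without it. Lists were described by counts and medians. Gene coordinates are GENCODE 29 (GRCh38), and promoters RefSeq GRCh38.p14. A log2 difference is high minus low tercile. Scripts were tested on simulated data.

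Named genes are in each direction the 12 largest changes past the test that kept 1 sign in all 4 irradiated libraries, at an average log2 CPM of 5 or more, the 3 members of each list with the smallest p, a set of 18 preset genes, and, for the other contrasts, the 5 largest changes each way. The members and lists were chosen with earlier results of these data known. Alternatives used DESeq2 1.42.0, limma 3.58.1, other filters, weights, splits and depths, and each library left out. Some genes past a test are not reported here.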

Additional observations from a re-analysis of the deposited data

Results flagged for a closer look

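For 8 genes described here the high-minus-low difference was not the same in irradiated and untreated cells by a test of the difference itself (edgeR interaction term, log2 difference in irradiated minus that in untreated libraries). It was 1.87 for SOD2. It was -1.60 for CKS2, -2.59 for CCNB1, -2.84 for AURKA and -3.68 for CCNB2, all regulators of mitosis. It was -3.76 for DTL and -5.51 for ZNF367, a zinc finger gene that was at 28.2 to 40.6 CPM in irradiated high terciles and 9.60 to 15.1 CPM in irradiated low terciles, and at 19.0 to 47.5 CPM in untreated high terciles and 0 to 0.57 CPM in untreated low terciles. It was -5.82 for SOX4, whose untreated low terciles were at 1.10 and 0.42 CPM in the knockdown and 143 and 265 CPM in WT; without cells above 2 times the median total the SOX4 difference was -1.05 and did not pass. CCNB2 stood at 0.44 and 2.08 CPM in untreated knockdown low terciles and at 83.8 and 6.94 CPM in untreated WT low terciles. Its untreated high terciles were at 123 and 134 CPM in the knockdown and 117 and 84.8 CPM in WT. Such low levels, also for ZNF367 and DTL, limit the size of a fold. The median index of the irradiated low terciles was 392 to 690 CPM, against 160 to 240 CPM in the untreated low terciles. Its part in the differences of these 8 genes was not tested. Without replicate 1 of irradiated WT only 1 upward and 1 downward gene passed the test of the difference.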

How the results depend on the processing

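Of 51 named genes past the test in irradiated cells, 27 passed under every alternative and 1, SOX4, reversed. The count of 194 genes became 376 with DESeq2 and 107 with a split at the median in place of terciles, and 108 to 256 with 1 library left out. The untreated count of 714 became 1231 with DESeq2, 475 with the untreated libraries fitted alone and 472 to 768 with 1 library left out. The 9 genes that differed between conditions became 48 without a filter, 2 at average log2 CPM of at least 5, 60 with DESeq2, 18 with limma, 45 with cells thinned to equal counts, 3 with index genes weighted equally, 25 with the median split, 5 with terciles drawn separately among shallow and deep cells, 43 without cells above 2 times the median total, and 2 to 53 with 1 library left out. The genotype difference, 0 genes, became 2 without a filter, 2 with DESeq2, 2 with the median split, 1 without the large cells, and 0 to 6 with 1 library left out. The cause was not tested. Without the large cells 71.9% of the irradiated calls were upward, beside 82.0%, and with limma 77.1% of the untreated calls, beside 65.4%.

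Without the replicate block, which pairs the terciles of a library, 155 genes were called in irradiated cells (149 shared), 674 in untreated cells, 4 for the difference between conditions and 0 for the genotype difference.

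Median total counts, high minus low, became -23990 when shallow and deep cells were split separately. Signs changed, for genes not past the test apart from SOX4, as follows. AURKA was -0.079 with thinned cells and -0.16 with the median split, and CCNB2 -0.40 with thinned cells and -0.024 to 1.16 with 1 library left out. CDKN1A was -0.074 with thinned cells and ranged from -0.12 to 0.72 with 1 irradiated library left out. PLK1 was -0.16 with limma, -0.70 with thinned cells, -0.17 with equal weights, -1.05 with the median split, -0.071 without the block, -0.36 to 0.37 with 1 library left out. CSF1R was 0.58 with equal weights and -2.18 to 1.92 with 1 library left out, LAPTM5 was -0.66 to 0.066, and TNFSF10 was -0.88 to 0.37 in the same way. Without the large cells DNAL1 was -0.31 and SOX4 2.21. Low terciles of few counts, as for CDC45, limit the size of a fold.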
